A study of Homo sapiens with 4 samples.

Results

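CD44, the main cell surface receptor for hyaluronan, was followed together with the hyaluronan synthases HAS1, HAS2 and HAS3, the hyaluronidases HYAL1 and HYAL2, the hyaluronan-degrading protein CEMIP, and VCAN, which encodes the hyaluronan-binding proteoglycan versican. The genes were picked by symbol, and all 8 were found among the 25283 rows of the count table. They were chosen with values of U1_OE against control from these same libraries already known, among them the DESeq2 call of CD44, so their levels and fold changes are given as a description and carry no test. Of the 8 genes, 7 passed the filter on low counts, and HAS1 did not.

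The cells descend from the human embryonic stem cell line H1, passed through neural progenitors into a maturation medium, and carry the label neuron. In the U1_OE group, 2 libraries came from cells labelled as overexpressing U1 snRNA, the RNA that pairs with 5′ splice sites in the first step of splicing. In the control group, 2 libraries came from cells labelled wild type with an empty vector. A lentiviral vector was given for 36 hours. For the control samples, too, the treatment text mentions the overexpression vector, and the groups here rest on the genotype labels and titles. Whether libraries of the same group stem from different cultures is not stated, so p-values measure only the spread between these libraries, which may be technical. The level of U1 snRNA itself was not analysed here.

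Library totals were 16713505 and 19057423 estimated counts in U1_OE and 17061796 and 17636307 in control. The labelled cell type was checked against marker lists. Levels are in CPM, counts per library total after TMM scaling of those totals. The lowest value over the 4 libraries was at least 10 CPM for all 20 mesenchymal markers. It was at least 10 CPM for 1 of 12 measured neuronal markers and at least 1 CPM for 6 of them. In the astrocyte list 1 of 9 measured markers (GJA1) reached 10 CPM in every library, and in the endothelial list 1 of 7 (PECAM1). In the epithelial list 2 of 5 did (KRT8, KRT18), and in the blood and microglia list 2 of 5 (TMEM119, CD68). In the pluripotent stem cell list 0 of 3 did. DCX, which marks immature neurons, had 0 and 0.157 CPM in U1_OE libraries and 0 and 0.111 CPM in control libraries. TUBB3, a neuronal beta-tubulin that other cells also make, had 264 and 338 CPM in U1_OE libraries and 159 and 104 CPM in control libraries. GAP43, which is abundant in growing axons, had 46.9 and 11.5 CPM in U1_OE libraries and 3.30 and 1.27 CPM in control libraries. Summed over the neuronal list, levels were 336 and 371 CPM in U1_OE libraries and 191 and 122 CPM in control libraries. Both U1_OE libraries were higher, as for CD44, and the part of this in the levels of CD44 was not tested. TUBB3 made up most of each sum. The medians of the neuronal list overlapped, at 2.22 and 1.10 CPM in U1_OE libraries and 2.44 and 0.912 CPM in control libraries. Summed over the mesenchymal list, levels were 88430 and 79789 CPM in U1_OE libraries and 64287 and 82284 CPM in control libraries, so control replicate 1 was lowest. COL1A1, COL1A2 and COL3A1 made up most of each sum. The medians of the mesenchymal list overlapped, at 744 and 493 CPM in U1_OE libraries and 315 and 577 CPM in control libraries. Both U1_OE libraries lay above both control libraries for COL1A1, COL5A1, COL6A1, COL6A2, PDGFRA, PDGFRB, THY1, TWIST1, POSTN, ACTA2, TAGLN and VIM. The groups overlapped for the other mesenchymal markers, COL1A2, COL3A1, DCN, LUM, PRRX1, FAP, S100A4 and FBLN1. Of all tested genes, 19.7% had U1_OE higher without overlap. The part of these markers in the levels of CD44 was not tested either. In such bulk RNA, fewer cells of a type and less RNA per cell cannot be told apart.

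Hyaluronan is a long unbranched sugar polymer that the synthases spin out at the plasma membrane from UDP-sugars. Cells bind it through CD44, whose cytoplasmic tail is tied to the actin cortex by ezrin, radixin and moesin, and versican binds it to form pericellular coats around mesenchymal cells. Hyaluronidases and CEMIP cut the polymer. CD44 is also made in many isoforms by splicing of variable exons, and counts per gene do not show which isoform was present.

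To show where transcription of the 3 members with the highest counts begins, the bases before their RefSeq start (RefSeq, GRCh38.p14, plus strand for all 3) are given 5′ to 3′. A window of 250 bases was matched for 7 of the 8 members. Those printed lie at chr11:35138921-35139170 for CD44, chr5:83471494-83471743 for VCAN and chr15:80779120-80779369 for CEMIP. Capitals mark matches on either strand to the GC box GGGCGG or the TATA box TATAAA, and no capitals overlap between motifs.
CD44: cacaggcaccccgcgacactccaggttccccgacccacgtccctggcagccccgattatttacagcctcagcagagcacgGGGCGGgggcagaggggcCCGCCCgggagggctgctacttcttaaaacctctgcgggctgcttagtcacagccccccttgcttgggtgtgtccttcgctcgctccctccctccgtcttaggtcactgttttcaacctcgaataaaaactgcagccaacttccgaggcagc
VCAN: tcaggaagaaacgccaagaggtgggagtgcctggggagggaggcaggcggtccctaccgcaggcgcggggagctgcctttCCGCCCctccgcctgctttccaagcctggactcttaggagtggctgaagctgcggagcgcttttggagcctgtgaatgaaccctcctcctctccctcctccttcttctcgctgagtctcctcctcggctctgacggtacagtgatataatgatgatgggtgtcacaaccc
CEMIP: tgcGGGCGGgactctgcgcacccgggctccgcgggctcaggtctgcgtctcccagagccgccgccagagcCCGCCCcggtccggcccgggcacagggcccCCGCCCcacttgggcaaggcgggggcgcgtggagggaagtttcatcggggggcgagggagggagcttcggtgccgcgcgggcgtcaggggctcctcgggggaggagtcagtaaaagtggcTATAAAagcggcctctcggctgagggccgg

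CD44 held 2 GC boxes in this window, VCAN 1 and CEMIP 3, and 42.6% of 35116 RefSeq windows of the same length held at least 1. CEMIP alone of these 3 held the TATA box, found in 10.7% of all windows. The AP-1 motif TGANTCA, present in 6.57% of all windows, had no match in the 3 windows. The matches are letters in a sequence and were not tied to the levels that follow. In the GENCODE v29 annotation of GRCh38, CD44 and VCAN begin upstream of these windows and CEMIP inside its window, so other annotated starts exist.

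CD44 (ENSG00000026508, chromosome 11, 35138870 to 35232402, plus strand) had 188 and 275 CPM in U1_OE libraries, against 83.5 and 87.1 CPM in control libraries. Both U1_OE libraries lay above both control libraries, and the U1_OE libraries were further from each other than the control libraries were. The means were 232 ± 61.5 CPM in U1_OE and 85.3 ± 2.56 CPM in control (SD, n = 2 each), a ratio of 2.72. The edgeR log2 fold change was 1.44 ± 0.22 (SE). Leaving out 1 library at a time gave 1.14 without U1_OE replicate 2 and 1.70 without U1_OE replicate 1, with the values without a control library between these. CD44 stood at the 87th to 91st percentile of tested genes per kb of exon in U1_OE libraries and at the 75th to 77th in control libraries, among 14928 tested genes with an annotated length.

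**Figure D1:**
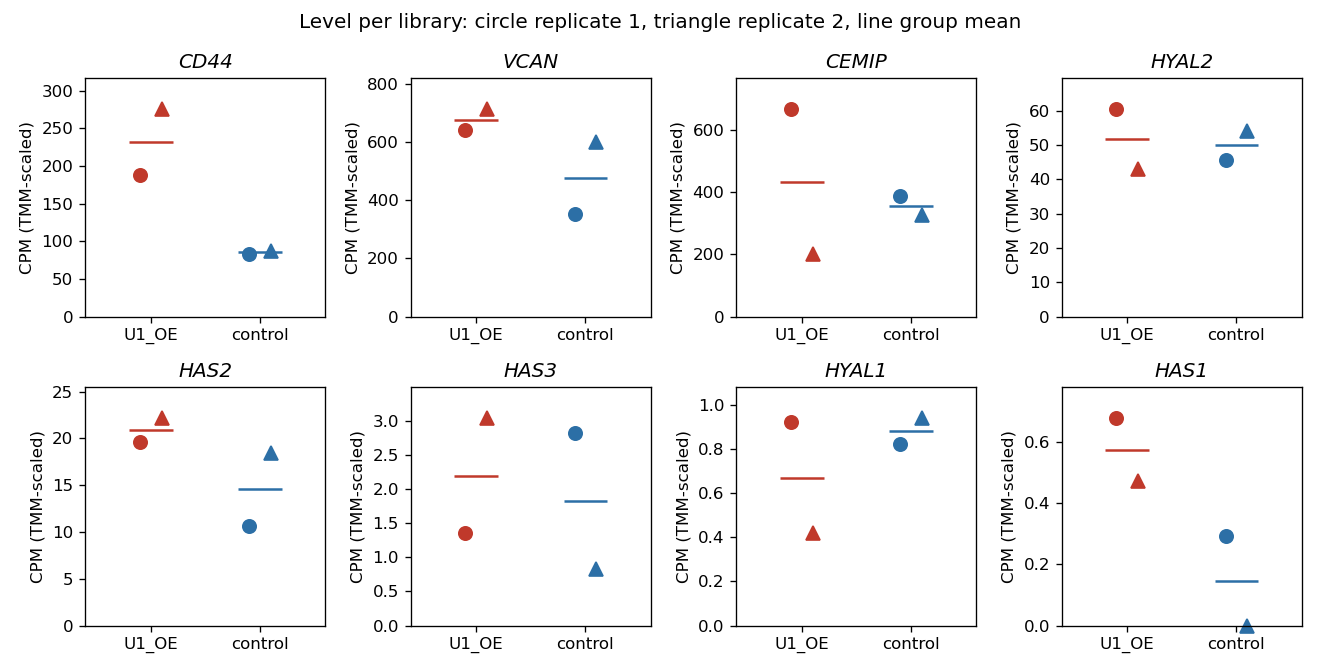
TMM-scaled CPM of each of the 8 genes in each library, with a separate linear axis from 0 for each gene, circles for replicate 1, triangles for replicate 2 and a line at the group mean. In the CD44 panel both U1_OE points, at 188 and 275 CPM, lie far above both control points, at 83.5 and 87.1 CPM. HAS1, HAS2 and VCAN also have both U1_OE points above both control points, HAS1 at no more than 0.677 CPM.

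HAS2, the synthase with the highest level here (ENSG00000170961, chromosome 8, 121612116 to 121641390, minus strand), had 19.6 and 22.1 CPM in U1_OE libraries, against 10.7 and 18.5 CPM in control libraries. The groups did not overlap, but control replicate 2 was nearer to the U1_OE libraries than to the other control library. Its log2 fold change was 0.52 ± 0.30. Leaving out control replicate 1 gave 0.20, and leaving out control replicate 2 gave 0.97. HAS2-AS1, an antisense transcript that shares 201 exon bases with HAS2, had 5.11 and 3.56 CPM in U1_OE libraries and 2.35 and 2.38 CPM in control libraries. No strand-marking step is stated, so reads of the shared bases cannot be told apart.

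HAS3 (ENSG00000103044, chromosome 16, 69105564 to 69118719, plus strand) had 1.35 and 3.04 CPM in U1_OE libraries, against 2.83 and 0.829 CPM in control libraries. The groups overlapped, and the log2 fold change of 0.27 ± 0.76 turned to -0.43 without U1_OE replicate 2 and to -0.36 without control replicate 2. Without control replicate 1 it was 1.42, so its direction hung on which library was used. It shares 365 exon bases with CHTF8 on the opposite strand, a gene at 51.4 and 56.8 CPM in U1_OE libraries and 50.4 and 48.8 CPM in control libraries, so part of its few counts may be shared.

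HAS1 (ENSG00000105509, chromosome 19, 51713112 to 51723994, minus strand) had 10.7 and 8.70 estimated counts in U1_OE libraries, against 4.60 and 0 in control libraries. That is 0.677 and 0.472 CPM in U1_OE libraries against 0.294 and 0 CPM in control libraries, where a count of 0 allows up to 3 counts, or 0.166 CPM. It did not pass the edgeR filter, and its DESeq2 log2 fold change of 1.98 ± 2.21 (SE) was smaller than its error.

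Taken per kb of exon, HAS2 made up 89.3% and 87.1% of the summed synthase level in U1_OE libraries and 79.3% and 96.6% in control libraries. HAS3 made up 4.90% and 9.48% in U1_OE libraries and 16.7% and 3.44% in control libraries. The control libraries thus enclosed both U1_OE libraries for each of these shares. The transcripts of the 3 synthases in GENCODE v29 share no run of 50 bases with each other, and neither do those of HYAL1 and HYAL2.

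HYAL2 (ENSG00000068001, chromosome 3, 50317790 to 50322906, minus strand), a hyaluronidase anchored at the cell surface, had 60.4 and 43.0 CPM in U1_OE libraries, against 45.8 and 54.0 CPM in control libraries. The U1_OE libraries enclosed both control libraries. The log2 fold change was 0.05 ± 0.21, and it ran from -0.20 without U1_OE replicate 1 to 0.27 without U1_OE replicate 2. HYAL2 shares 509 exon bases on the same strand with TUSC2, a tumour suppressor candidate at 84.4 and 84.0 CPM in U1_OE libraries and 85.5 and 82.7 CPM in control libraries, so the division of reads between them is uncertain.

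HYAL1 (ENSG00000114378, chromosome 3, 50299889 to 50312381, minus strand), the lysosomal and circulating hyaluronidase, had 0.924 and 0.419 CPM in U1_OE libraries, against 0.824 and 0.940 CPM in control libraries. U1_OE replicate 1 lay between the control libraries and U1_OE replicate 2 below them. Its log2 fold change was -0.40 ± 0.73 from at most 16.7 counts in a library, -1.05 without U1_OE replicate 1 and 0.06 without U1_OE replicate 2. Per kb, HYAL2 exceeded HYAL1 45.1-fold and 70.6-fold in U1_OE libraries and 38.3-fold and 39.6-fold in control libraries.

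CEMIP (ENSG00000103888, chromosome 15, 80779343 to 80951776, plus strand), which promotes hyaluronan depolymerisation in skin fibroblasts, had 665 and 201 CPM in U1_OE libraries, against 388 and 325 CPM in control libraries. U1_OE replicate 1 was the highest of the 4 libraries and U1_OE replicate 2 the lowest. The log2 fold change of 0.28 ± 0.56 was -0.82 without U1_OE replicate 1 and 0.90 without U1_OE replicate 2, so the 2 libraries gave opposite directions. The means were 433 ± 328 CPM in U1_OE and 356 ± 44.8 CPM in control (SD, n = 2 each). Its antisense neighbour MESD, an LDL receptor chaperone that shares 224 exon bases, had 59.7 and 40.9 CPM in U1_OE libraries and 41.9 and 44.1 CPM in control libraries.

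VCAN (ENSG00000038427, chromosome 5, 83471465 to 83582303, plus strand) had 642 and 711 CPM in U1_OE libraries, against 353 and 599 CPM in control libraries. The groups did not overlap, but control replicate 2 lay closer to the U1_OE libraries than to control replicate 1, the library with the lowest summed mesenchymal markers, whose part in the result was not tested. The means were 676 ± 48.8 CPM in U1_OE and 476 ± 174 CPM in control (SD, n = 2 each). The log2 fold change was 0.51 ± 0.28, which became 0.20 when control replicate 1 was left out and 0.94 when control replicate 2 was. VCAN-AS1, an antisense transcript that shares 453 exon bases, had 3.63 and 6.61 CPM in U1_OE libraries and 7.95 and 4.31 CPM in control libraries, with overlapping groups.

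**Figure D2:**
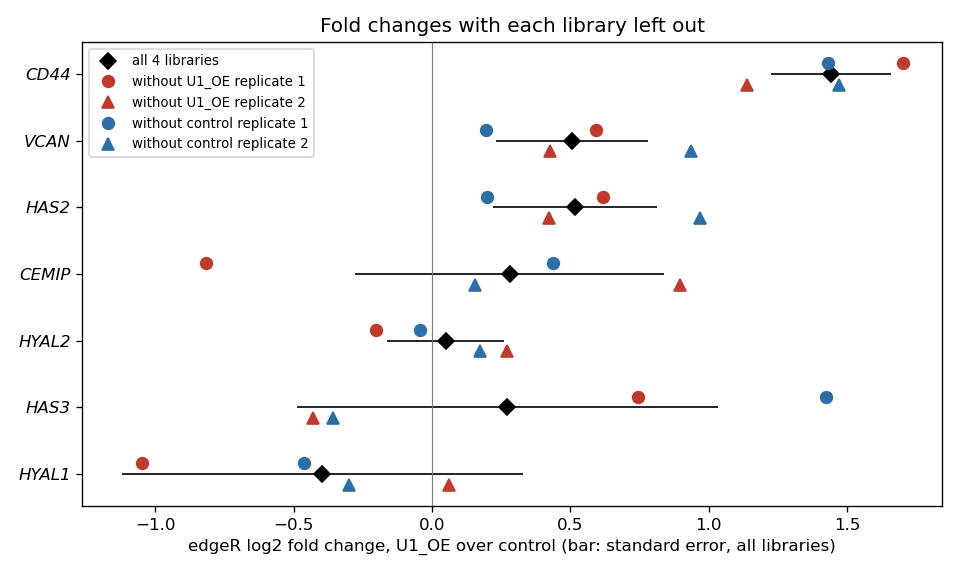
edgeR log2 fold changes of U1_OE over control for the 7 genes that passed the filter, with all libraries (black, bar of 1 standard error) and with each library left out (coloured). CD44 stays between 1.14 and 1.70, and CEMIP lies at -0.82 or 0.90 depending on which U1_OE library is left out.

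Over all tested genes, the quasi-likelihood test of edgeR, adjusted by Benjamini-Hochberg, called 0 of 17317 under an adjusted p of 0.05, or 0%, with a lowest adjusted p of 0.459 and 1572 genes at an unadjusted p under 0.05. It called 0 of the 7 tested members. DESeq2 called 179 of 18420 genes, or 0.972%, of which 0.548% were higher and 0.423% lower in U1_OE, and 1 of 7 members, CD44. Without U1_OE replicate 1 or without U1_OE replicate 2, DESeq2 called 2 members, CD44 and CEMIP, with CEMIP at -0.80 in the first case and 0.90 in the second. Since the members were chosen from this contrast, nothing is read from that count. The groups did not overlap for 3 of the 7 tested members, CD44, HAS2 and VCAN, all higher in U1_OE. Of all tested genes 41.8% had groups that did not overlap, 19.7% with U1_OE higher and 22% with U1_OE lower. Log2 fold changes were positive for 6 of the 7, with a median of 0.28. Over all tested genes 49.3% were positive, with a median of -0.01. For HAS3, HYAL2 and CEMIP the sign turned negative in some fits with 1 library left out. The members were chosen with these values known, so nothing is read from their signs either.

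Compared per kb of exon, CEMIP and VCAN had the highest levels, at 26.3 to 87.3 and 23.8 to 47.9 CPM per kb over the 4 libraries. Their ranges overlapped, with CEMIP above VCAN in every library but U1_OE replicate 2. By its mean over the libraries CD44 came after these genes, at 18.8 and 27.5 CPM per kb in U1_OE libraries and 8.34 and 8.71 CPM per kb in control libraries. HYAL2 had 13.3 and 9.46 CPM per kb in U1_OE libraries and 10.1 and 11.9 CPM per kb in control libraries. In U1_OE replicate 2 CD44 also lay above CEMIP, at 26.3 CPM per kb, and in every library below VCAN. CD44 was above HYAL2 in both U1_OE libraries and below it in both control libraries. HAS2 came next at 2.54 to 5.28 CPM per kb, apart from HYAL2 above it and from HAS3 below it. HAS3, HYAL1 and HAS1 had at most 0.575, 0.300 and 0.302 CPM per kb, and their ranges overlapped.

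**Figure D3:**
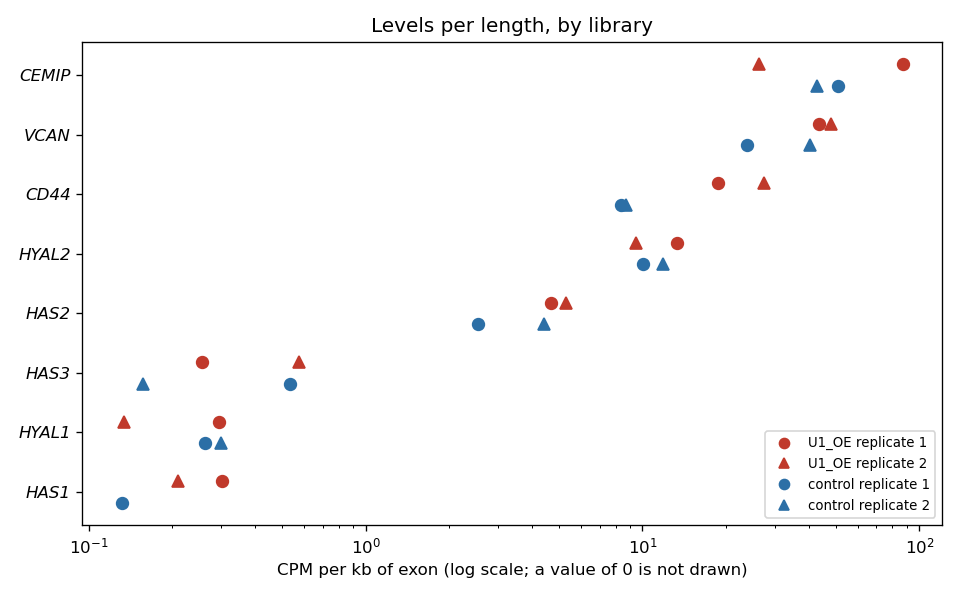
CPM per kb of exon for each gene and library on a log axis, with U1_OE points drawn above control points and genes ordered by their mean. CD44 changes place with HYAL2, lying above it in U1_OE libraries (18.8 and 27.5) and below it in control libraries (8.34 and 8.71).

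VCAN and HAS2 had nearly the same pattern over the 4 libraries. The ratio of VCAN to HAS2 per kb was 9.26 and 9.08 in U1_OE libraries and 9.37 and 9.17 in control libraries, while each gene's own level varied far more. CD44 did not keep such a ratio. VCAN over CD44 per kb was 2.30 and 1.74 in U1_OE libraries and 2.86 and 4.64 in control libraries. Likeness was measured as the Euclidean distance between centred log2(CPM + 1) values over 4 libraries, among 8457 genes with a symbol and a mean of at least 10 CPM. HAS2 lay at 0.0275 from VCAN, and the nearest gene outside the 8 was NRG1, a growth factor of the epidermal growth factor family, at 0.0600. NTAQ1, SLIT2, TMA16 and CTDSPL2 followed at 0.0779 to 0.207. With 4 points that share libraries, this is a description only.

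The genes most like CD44 were SOX9, MYO10, PLAT, SLC35E4 and FOXC2, at distances of 0.287 to 0.375, none of them in a hyaluronan or versican list. SOX9, a transcription factor of cartilage and glial cells, had 17.4 and 21.3 CPM in U1_OE libraries and 7.12 and 8.35 CPM in control libraries. It is also in the astrocyte marker list. PLAT, tissue plasminogen activator, had 192 and 364 CPM in U1_OE libraries and 117 and 115 CPM in control libraries. MYO10, an unconventional myosin of filopodia, had 14.5 and 22.6 CPM in U1_OE libraries and 8.30 and 7.19 CPM in control libraries. Each of these had both U1_OE libraries above both control libraries, which follows from their choice by likeness to CD44. The other members were far from CD44 on this measure, with VCAN at 1.03 and CEMIP at 2.12.

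**Figure D4:**
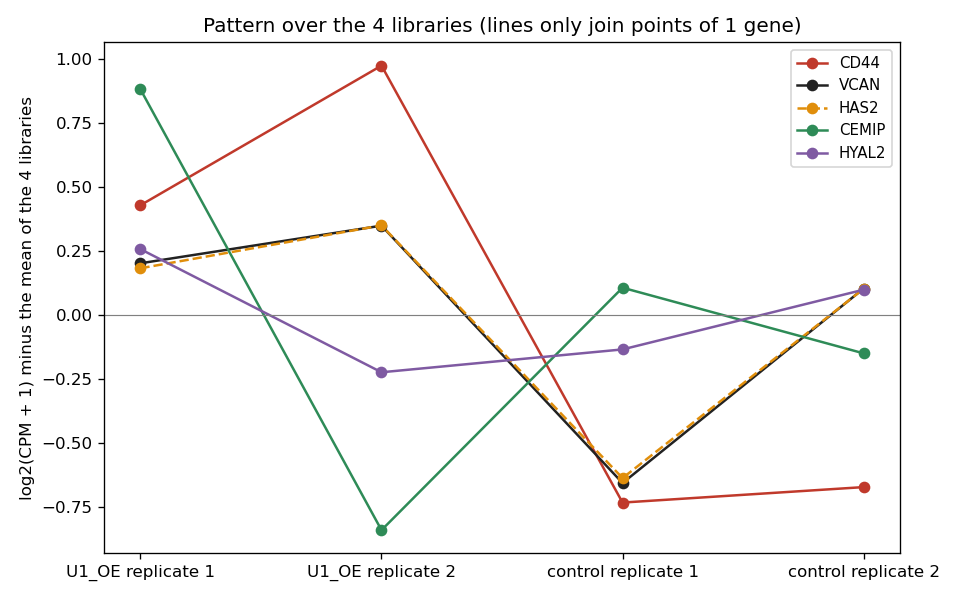
log2(CPM + 1) of 5 genes in each library after subtracting the gene's mean over the 4 libraries, with lines that only join the points of a gene. The VCAN and HAS2 lines run on top of each other (distance 0.0275), and CEMIP has its highest and lowest values in the 2 U1_OE libraries.

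The other genes of hyaluronan, CD44 and versican biology were taken from 11 lists of 103 genes without the members, of which 92 were measured and 84 passed the filter. edgeR's quasi-likelihood test called 0 of the 84, against 0% over all genes. At an unadjusted p under 0.05 lay 10 of the 84, or 11.9%, against 9.08% of all tested genes. DESeq2 called 1 of the 84, against 0.972% over all genes. That gene was HEXA, the lysosomal hexosaminidase subunit that trims hyaluronan fragments. HEXA had 130 and 143 CPM in U1_OE libraries, against 210.4 and 226 CPM in control libraries, and its log2 fold change by DESeq2 was -0.67 ± 0.17 (SE; DESeq2 adjusted p = 0.0164). Its DESeq2 call was lost without U1_OE replicate 1 (adjusted p = 0.366), control replicate 1 (adjusted p = 0.954) or control replicate 2 (adjusted p = 1.00), with log2 fold changes from -0.58 to -0.75 over the 4 smaller fits. Over the 84 genes, log2 fold changes were positive for 57 and negative for 27, and their median was 0.15. The groups did not overlap for 31 of the 84, or 36.9%, against 41.8% over all genes.

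Enzymes that supply UDP-sugars to the synthases had 8 of 10 positive log2 fold changes (median 0.37), and 0 of 10 were called. UGP2, which makes UDP-glucose, had 145 and 198 CPM in U1_OE libraries and 125 and 102 CPM in control libraries. GNPNAT1, of the UDP-N-acetylglucosamine route, had 31.8 and 55.9 CPM in U1_OE libraries and 26.5 and 22.3 CPM in control libraries. UAP1, the last enzyme of that route, had 30.8 and 53.4 CPM in U1_OE libraries and 29.9 and 20.8 CPM in control libraries. For all 3 the groups did not overlap, which held for 6 of the 10 genes, each with U1_OE higher. Of all tested genes, 41.8% had groups that did not overlap in either direction, 19.7% with U1_OE higher. Over the 11 lists the share in either direction ran from 0% to 60%, and this list had the highest. GPI, an enzyme shared with glycolysis, had 139 and 164 CPM in U1_OE libraries and 157 and 149.6 CPM in control libraries.

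Among 6 tested genes of hyaluronan breakdown beside the members, 3 log2 fold changes were positive and 3 negative. HYAL3, a hyaluronidase gene near HYAL1, had 10.0 and 3.83 CPM in U1_OE libraries and 4.06 and 4.04 CPM in control libraries. Its U1_OE libraries enclosed the control libraries, as in CEMIP, with U1_OE replicate 1 highest.

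Of 6 tested hyaluronan receptors other than CD44, 0 were called. LAYN, the receptor layilin, had 76.7 and 92.2 CPM in U1_OE libraries and 50.9 and 66.5 CPM in control libraries. LYVE1, the receptor of lymphatic endothelium, had 4.99 and 2.31 CPM in U1_OE libraries and 0.883 and 1.27 CPM in control libraries. For both the groups did not overlap. TLR4, an innate immune receptor reported to respond to hyaluronan fragments, had 15.1 and 25.7 CPM in U1_OE libraries and 24.8 and 22.8 CPM in control libraries.

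The matrix proteins that bind hyaluronan had 7 tested genes, 0 of them called. Log2 fold changes were positive for 3 and negative for 4. HAPLN1, the link protein that locks versican onto hyaluronan, had 164 and 231 CPM in U1_OE libraries and 269 and 246 CPM in control libraries, with both U1_OE libraries lower and a log2 fold change of -0.38 ± 0.20. PTX3, a pentraxin that cross-links hyaluronan chains, had 666 and 1467 CPM in U1_OE libraries and 1388 and 902 CPM in control libraries. PRG4, the lubricating proteoglycan of joints, had 70.4 and 15.9 CPM in U1_OE libraries and 8.01 and 15.4 CPM in control libraries, so 1 library set its mean. TNFAIP6, which transfers heavy chains to hyaluronan, was singled out after its values were seen. It had 25.0 and 31.6 CPM in U1_OE libraries and 15.3 and 14.7 CPM in control libraries, a log2 fold change of 0.92 ± 0.18 that neither tool called. HAPLN3 had 11.1 and 2.83 CPM in U1_OE libraries and 3.53 and 1.83 CPM in control libraries.

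None of 6 tested versican partners was called, and in 0 of the 6 were the groups apart, against 41.8% of all tested genes. Fibulin-1, FBLN1, which is also in the mesenchymal marker list, had 157 and 97.3 CPM in U1_OE libraries and 35.7 and 123 CPM in control libraries, with control replicate 1 lowest as for VCAN. TNC, tenascin-C, had 749.5 and 312 CPM in U1_OE libraries and 374 and 429 CPM in control libraries, again with overlapping groups. FBN1, fibrillin-1, had 1389.8 and 1214 CPM in U1_OE libraries and 1172 and 1316 CPM in control libraries. FN1, fibronectin, had 13659 and 14956 CPM in U1_OE libraries and 19477 and 12711 CPM in control libraries. Of 5 tested proteases that cut versican, 0 were called. ADAMTS9 had 13.6 and 6.76 CPM in U1_OE libraries and 15.6 and 31.5 CPM in control libraries. ADAMTS15 had 8.81 and 14.4 CPM in U1_OE libraries and 22.7 and 15.0 CPM in control libraries. Both had U1_OE lower without overlap, whereas ADAMTS1, at 95.8 and 150.4 CPM in U1_OE libraries and 101 and 59.9 CPM in control libraries, overlapped between groups. ADAMTS5 had 25.6 and 23.9 CPM in U1_OE libraries and 25.5 and 19.2 CPM in control libraries.

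On the cytoplasmic side of CD44, 5 of 6 linker genes had a positive log2 fold change and 0 were called. MSN, moesin, had 376 and 408 CPM in U1_OE libraries and 285 and 239 CPM in control libraries, without overlap and with a log2 fold change of 0.58 ± 0.15. EPB41L3, a protein of the band 4.1 family, had 79.3 and 80.0 CPM in U1_OE libraries and 37.5 and 58.6 CPM in control libraries. RDX, radixin, had 70.7 and 70.5 CPM in U1_OE libraries and 77.7 and 61.9 CPM in control libraries. Of 10 genes for cleavage of CD44 at the membrane, 0 were called. Log2 fold changes were positive for 5 and negative for 5, and their median was -0.02. MMP14, a membrane metalloprotease that sheds CD44, had 2909 and 2453 CPM in U1_OE libraries and 2756 and 3370.3 CPM in control libraries. ADAM10 had 221 and 164 CPM in U1_OE libraries and 166 and 161 CPM in control libraries. NCSTN and APH1B are subunits of the gamma-secretase that cuts the remaining stub, and their groups lay apart in opposite directions. NCSTN had 181 and 186 CPM in U1_OE libraries and 216 and 198 CPM in control libraries. APH1B had 12.9 and 13.0 CPM in U1_OE libraries and 10.1 and 9.07 CPM in control libraries.

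Of 4 other ligands of CD44 0 were called. SPP1, osteopontin, had 64.4 and 229 CPM in U1_OE libraries, against 377 and 403 CPM in control libraries, both U1_OE libraries lower, with a log2 fold change of -1.41 ± 0.59. MIF, a cytokine that binds CD74 with CD44 as co-receptor, had 778 and 649 CPM in U1_OE libraries and 743 and 602 CPM in control libraries. LGALS9, a galectin, had 3.88 and 1.89 CPM in U1_OE libraries and 1.65 and 2.82 CPM in control libraries. Of the factors known to act on the variable exons of CD44, 3 were tested and 0 called. KHDRBS1 had 85.5 and 85.1 CPM in U1_OE libraries and 77.2 and 85.0 CPM in control libraries. HNRNPM had 102 and 133 CPM in U1_OE libraries and 106 and 109.7 CPM in control libraries. SRRM1 had 72.0 and 57.2 CPM in U1_OE libraries and 54.9 and 60.1 CPM in control libraries. Only for KHDRBS1 did the groups not overlap among these 3 genes, by a small margin. ESRP2, an epithelial splicing factor, had at most 0.294 CPM, in control replicate 1, and did not pass the filter.

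The enzymes that build the chondroitin sulfate chains carried by versican had 15 of 21 positive log2 fold changes (median 0.13), and 0 were called. CHPF, a chondroitin polymerising factor, had 498 and 365 CPM in U1_OE libraries and 462 and 485 CPM in control libraries. Its relative CHPF2 had 234 and 153 CPM in U1_OE libraries and 162 and 165 CPM in control libraries. In both genes U1_OE replicate 1 was the highest library and U1_OE replicate 2 the lowest. XYLT1, which starts the chains, had 1.85 and 3.62 CPM in U1_OE libraries and 0.824 and 1.05 CPM in control libraries. CHST15, a sulfotransferase, had 13.9 and 22.8 CPM in U1_OE libraries and 24.9 and 27.1 CPM in control libraries. For XYLT1 and CHST15 the groups lay apart in opposite directions.

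**Figure D5:**
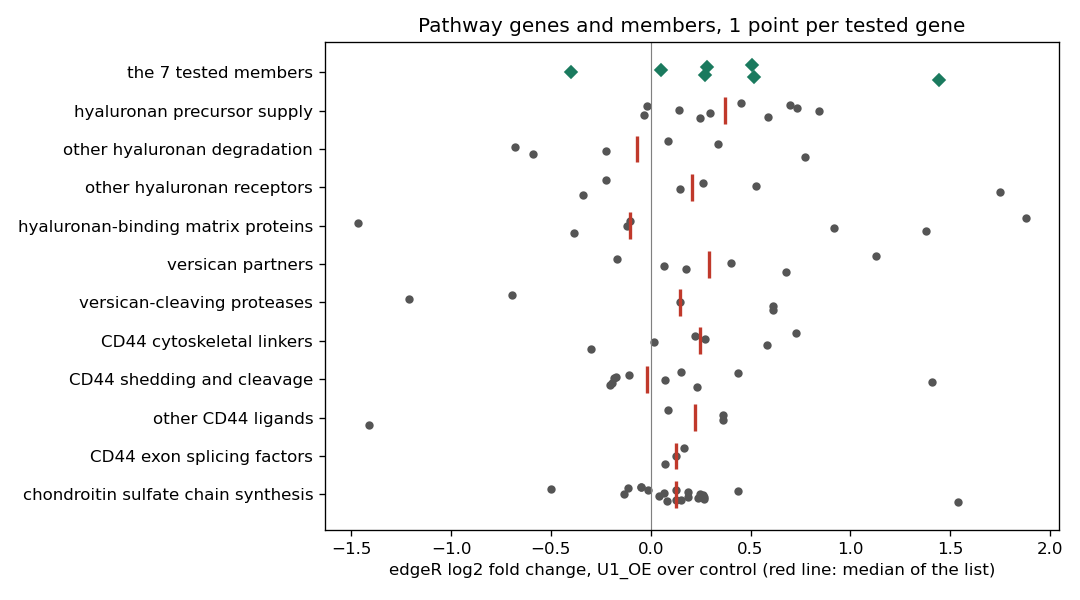
edgeR log2 fold changes of U1_OE over control, 1 point per tested gene, for the 11 lists of hyaluronan, CD44 and versican genes (grey, red line at the median) and for the 7 tested members (green). List medians lie between -0.10 and 0.37, and edgeR called 0 of these genes.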

How the data were processed

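RNA-seq was done on 4 libraries, 2 labelled U1_OE and 2 labelled control. The authors deposited estimated counts per gene, not normalised, and per the submitters' processing notes the tools were STAR, featureCounts, Trim Galore and DESeq2 on hg38, with no versions, roles or order. Of the values above 0, 1.99% lie within 0.01 of a whole number, and the origin of the fractions is not given in these sources. If reads were divided between genes, values of overlapping genes depend on that division. Replicate numbers come from the titles.

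Rounded counts went into edgeR 4.0.16, run in R 4.3.3 (filterByExpr, TMM, quasi-likelihood test, Benjamini-Hochberg over 17317 genes, threshold 0.05). Each edgeR SE is the log2 fold change over the root of its F statistic, so it restates that test. Alternatives were unfiltered counts, a filter at 50 mean counts, RLE factors, unscaled library sizes, DESeq2 1.42.0 at default settings, limma-voom (limma 3.58.1), a replicate block and each library left out, where the lone library of a group is assumed to vary like the other group. The procedures were tested on simulated data. Gene spans and exon lengths come from GENCODE v29 on GRCh38, in which 76.7% of rows were matched by symbol or identifier. Totals of 16713505 to 19057423 counts limit precision mainly for low genes, and the limit of 3 counts covers counting error only. The members and lists were chosen with earlier results of these data known. Beside the members, the text names per list the 2 tested genes of highest mean CPM, the 2 of largest absolute log2 fold change with a mean of at least 1 CPM, any called gene, the 5 genes nearest in pattern to CD44 and to VCAN, and transcripts that overlap a member. A gene named by this rule is not reported here.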

Additional observations from a re-analysis of the deposited data

How the results depend on the processing

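The edgeR count of 0 genes over the whole table and 0 pathway genes was also 0 with unfiltered counts, a filter at 50 mean counts, RLE factors, unscaled library sizes, limma-voom and each library left out (lowest 0, highest 0). DESeq2 called 179 genes and 1 pathway gene, and 189 and 1 with its filtering set for 0.05, a setting added after seeing the data. Without a library in turn, also added then, DESeq2 called 57 to 311 genes and 0 to 5 pathway genes, the lowest without control replicate 1 and the highest without U1_OE replicate 2. With each library left out, log2 fold changes ran from 1.14 to 1.70 for CD44, 0.20 to 0.94 for VCAN, 0.20 to 0.97 for HAS2, -0.43 to 1.42 for HAS3, -1.05 to 0.062 for HYAL1, -0.20 to 0.27 for HYAL2 and -0.82 to 0.90 for CEMIP. The cause of these spreads was not tested. Under the other settings the fold changes of these 7 genes moved by less than the SD between replicates, except that HAS3 and HYAL1 had no value with the filter at 50 mean counts. HAS1 did not pass the filter of the main edgeR fit, so its fold change is not compared here. Same-numbered libraries deviated weakly against each other (r = -0.11 over 17317 genes). With 2 libraries per group, this cannot show whether the numbers pair the samples. With the replicate block edgeR called 0 genes and 0 pathway genes and CD44 was 1.42, and with the crossed pairing, chosen after seeing the data, it called 0 and 0. HAS1 and HYAL1, at under 1 CPM, are limited by depth.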
